A study of Mus musculus with 121 samples.

Results

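The 62 libraries of this mouse fibroblast series were ranked by their RNA of 4 proliferation genes, whatever their labels, and the 15 highest were set against the 15 lowest. The counts of the sequencing runs of each library were summed, and the 61 libraries with at least 1000000 counts were ranked by the mean of log2(CPM + 1) of Top2a, Mki67, Cenpf and Kif11, where CPM is counts scaled to a library total of 1000000. This mean is called the proliferation score below. The 15 libraries with the highest scores, the 15 with the lowest and the 31 between them make up the ranked libraries. As the libraries of both groups were selected on the score, every difference between them is given as a description with no test. Tests were made of the score against the labels, and of other genes against the score in the 31 libraries that belong to neither group.

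All libraries came from 1 immortalised line of ear fibroblasts of a Per2::Luc knock-in mouse (genotype PER2::LUC sv), in which a luciferase is fused to the clock protein PER2, at passage 25. The cells received 3 cycles of 24 h in which the medium was changed every 12 h. In HL each cycle began with medium of high glucose and insulin content (H) and ended with medium of low content (L), in LH the order was the opposite, and in HH the high medium was renewed at each change. By the paper, RNA was then taken every 4 h after 12 h without further cycles, and the sample titles number 6 collections. The titles also give hours, which do not all step by 4 h from collection to collection. In collections 3 and 4 the hours of LH differ from those of HL and HH. Collections were grouped here by number and not by these hours. Total RNA was sequenced by 3′DGE, which reads the 3′ end of transcripts. The paper counts its replicates as biological ones in general terms, the labels do not say which libraries came from separate cultures, and all came from the same line, so the p-values below measure the spread between these libraries.

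Genes of the cell cycle are transcribed in waves. Before DNA replication, E2F factors activate genes of the replication machinery and of nucleotide supply, which retinoblastoma-family proteins repress in resting cells. Later, the MuvB complex with B-MYB and FOXM1 activates genes of mitosis through a promoter element called the CHR (cell cycle genes homology region), often with CCAAT boxes bound by NF-Y upstream, and in resting cells the same complex represses them as part of DREAM. TOP2A is the topoisomerase that untangles replicated DNA, MKI67 coats mitotic chromosomes, CENPF sits at kinetochores and KIF11 is the motor that pushes spindle poles apart.

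Promoter sequences of 5 genes show these elements and the one of the interferon response. They were chosen because Cdca3, Ttk, Ckap2l and Pclaf are cell cycle genes whose RNA rose with the score in the libraries of neither group, and Isg15 is an interferon-induced gene with lower RNA in the high libraries. Each runs 5′ to 3′ from 250 bases before the start site to 50 after it, from RefSeq on GRCm38.p6, and capitals mark motif matches on either strand. The CHR was searched as TTTGAA and its variant with the sequence TTCGAA, and the box of NF-Y as CCAAT. The E2F element was searched as TTTCCCGC and the other common form TTTGGCGC. The interferon-stimulated response element (ISRE) was searched as a pair of GAAA blocks with any 2 bases between them.
Cdca3, a trigger of mitotic entry, chr6:124829926-124830225, plus strand, with 1 ISRE, 3 CCAAT and 1 CHR: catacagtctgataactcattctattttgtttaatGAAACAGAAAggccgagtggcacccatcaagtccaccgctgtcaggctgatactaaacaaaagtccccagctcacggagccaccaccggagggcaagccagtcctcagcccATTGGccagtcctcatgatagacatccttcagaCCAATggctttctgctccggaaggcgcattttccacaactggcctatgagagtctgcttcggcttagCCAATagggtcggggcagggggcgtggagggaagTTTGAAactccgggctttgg
Ttk, the spindle checkpoint kinase MPS1, chr9:83834439-83834738, plus strand, with 2 CCAAT and 1 CHR: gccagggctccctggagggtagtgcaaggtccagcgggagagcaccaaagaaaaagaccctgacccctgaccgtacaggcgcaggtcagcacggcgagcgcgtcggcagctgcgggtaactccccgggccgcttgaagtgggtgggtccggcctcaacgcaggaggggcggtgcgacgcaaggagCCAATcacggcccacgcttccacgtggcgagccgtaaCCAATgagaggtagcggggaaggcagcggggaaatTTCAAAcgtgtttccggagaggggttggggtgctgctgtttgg
Ckap2l, a spindle protein, chr2:129297163-129297462, minus strand, with 3 CCAAT and 2 CHR: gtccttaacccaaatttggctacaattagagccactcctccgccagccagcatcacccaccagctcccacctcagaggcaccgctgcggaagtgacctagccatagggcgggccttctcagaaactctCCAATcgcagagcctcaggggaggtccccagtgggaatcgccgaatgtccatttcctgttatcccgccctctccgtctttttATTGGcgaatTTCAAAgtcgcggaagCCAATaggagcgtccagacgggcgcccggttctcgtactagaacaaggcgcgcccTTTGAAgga
Pclaf, a PCNA-binding factor, chr9:65890073-65890372, plus strand, with 2 CCAAT and 1 E2F: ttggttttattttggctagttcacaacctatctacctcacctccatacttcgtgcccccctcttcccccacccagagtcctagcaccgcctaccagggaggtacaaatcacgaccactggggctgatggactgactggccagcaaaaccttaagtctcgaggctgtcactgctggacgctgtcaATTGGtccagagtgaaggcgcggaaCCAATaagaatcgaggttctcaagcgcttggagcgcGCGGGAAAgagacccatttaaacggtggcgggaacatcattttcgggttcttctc
Isg15, a ubiquitin-like modifier, chr4:156200769-156201068, minus strand, with 3 overlapping ISRE: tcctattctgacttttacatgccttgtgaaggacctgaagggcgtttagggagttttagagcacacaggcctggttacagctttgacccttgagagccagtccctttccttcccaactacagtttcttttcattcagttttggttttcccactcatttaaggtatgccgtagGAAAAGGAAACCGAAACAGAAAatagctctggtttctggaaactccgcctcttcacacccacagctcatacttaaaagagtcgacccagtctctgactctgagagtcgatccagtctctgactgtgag
In Cdca3 and Ttk the CHR lies just after the start site with CCAAT boxes before it, while Pclaf has no CHR in its window and Isg15 has only the ISRE. A match is a description of letters and not a site shown to be bound.

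The score was 4.76 ± 0.27 in the high libraries (mean ± SD, n = 15, 4.49 to 5.30), 4.08 ± 0.26 in those between (n = 31, 3.53 to 4.49) and 3.07 ± 0.31 in the low libraries (n = 15, 2.62 to 3.50). High and low libraries differed by 1.69 on this log2 scale, or 3.22-fold, a distance that the ranking itself set. Top2a had a lowest, median and highest level of 137, 153 and 209 CPM in the high libraries and of 27.7, 49.3 and 75.4 CPM in the low libraries. Mki67 had 14.6, 20.9 and 38.9 CPM against 2.82, 5.90 and 8.32 CPM. Both genes were higher in each high library than in any low one. Cenpf had 13.5, 16.9 and 31.8 CPM against 1.87, 4.78 and 9.73 CPM, also without overlap. Kif11 had 2.94, 6.47 and 8.77 CPM against 0.628, 1.77 and 3.86 CPM, with overlap, and it rested on only 2 to 21 counts in a low library. In bulk RNA, fewer cycling cells and less of this RNA per cell cannot be told apart.

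The limits of the groups were close. The lowest high library (HL collection 4 replicate 1) and the highest library between (HL collection 4 replicate 4) had scores 0.0031 apart, and at the lower limit LH collection 5 replicate 3 (3.53) and LH collection 1 replicate 3 (3.50) were 0.027 apart. The scores of the 2 sequencing runs of a library differed with an SD of 0.287, and by at most 1.65, against an SD of 0.66 over the ranked libraries. With any 1 of the 4 genes left out of the score, 12 to 14 of the high and 12 to 15 of the low libraries were the same. Ranking by the first run alone gave 13 of the same high and 15 of the same low libraries, and by the second run 13 and 13.

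By the sample titles, HL gave 5 of the 15 high libraries, LH 3 and HH 7. Of the 15 low libraries, HL gave 5, LH 8 and HH 2. The first 3 collections held 5, 2 and 5 of the high libraries, and the sixth held none of them and 7 of the low ones. In the read summary that came with the study, the numbers of 40 libraries carry another name or are missing. The names agree for all HH libraries and for the first HL collection, and for no other HL or LH library. Many of the listed ones change between HL and LH, so membership of these 2 treatments is in doubt. By these numbers, 14 of the 15 high libraries were from the first 3 collections (5, 5 and 4) and none was from the fifth or sixth, where 10 of the 11 listed low libraries lay (2 and 8). The number of 4 low libraries is not listed. Which name is right cannot be told from the sources used here, so both are given.

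**Figure D1:**
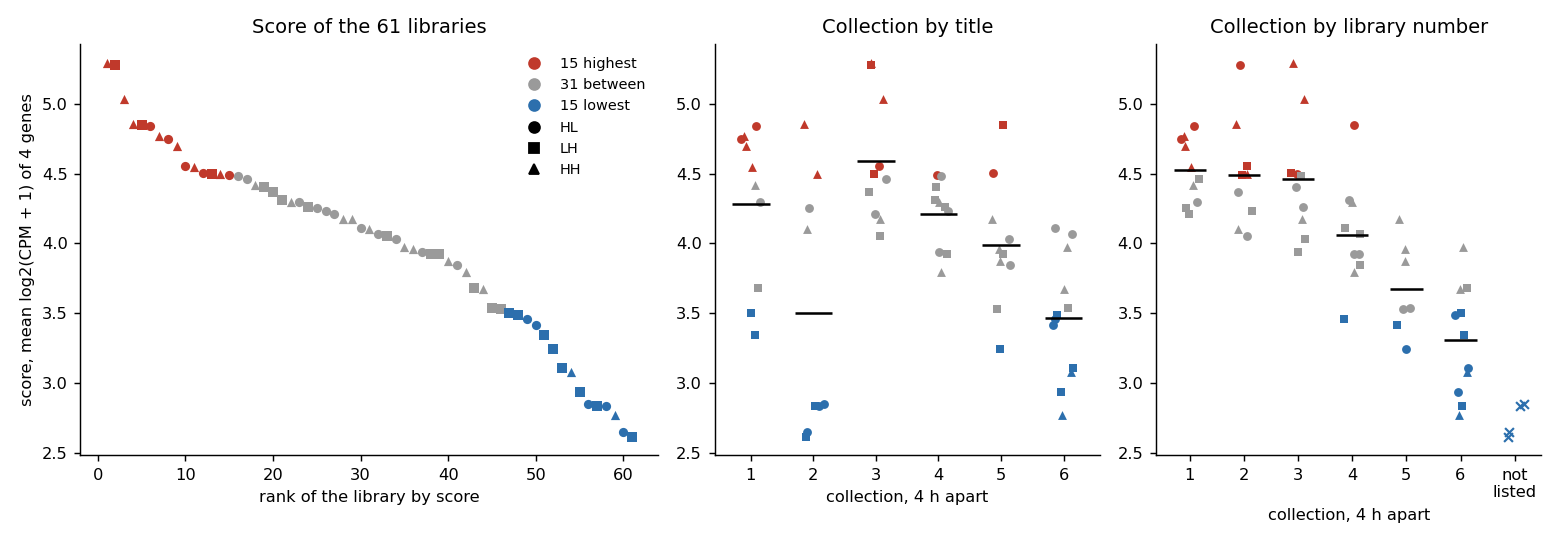
Proliferation score of 61 libraries (mean log2(CPM + 1) of Top2a, Mki67, Cenpf and Kif11) by rank, by collection from the sample titles and by collection from the library numbers, with the 15 highest in red, the 31 between in grey and the 15 lowest in blue, circles for HL, squares for LH, triangles for HH, crosses for numbers not listed and a bar at each collection's mean. By numbers the means step down from 4.52 in collection 1 to 3.31 in collection 6, while by titles collections 2 (3.50) and 6 (3.47) have the lowest means.

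The score was tested against each label after the means of the other label had been taken out, with permutations within the other label. By titles, collections accounted for 44.8% of the variation of the score that was left within treatments over 61 libraries (permutation test, p = 1e-05, the smallest that 100000 permutations can give), and by numbers for 68.3% over 57 libraries (permutation p = 1e-05, again the smallest). The collection means by titles were 4.28, 3.50, 4.59, 4.21, 3.99 and 3.47, and by numbers 4.52, 4.49, 4.46, 4.06, 3.68 and 3.31. The collections thus differed under either naming but in a different order, with a fall at every step only by numbers. Treatments accounted for 14.6% of the variation left within collections by titles (permutation p = 0.0143) and for 10.8% by numbers (permutation p = 0.0562). The plain means by titles were 4.01 ± 0.63 for HL (SD, n = 21), 3.79 ± 0.69 for LH (n = 21) and 4.21 ± 0.63 for HH (n = 19). Relative to the collection means of the pair compared, LH scored lower than HL by 0.34 (adjusted permutation p = 0.0288 over 3 pairs of treatments) and lower than HH by 0.47 (adjusted permutation p = 0.022), and HH was above HL by 0.16 (adjusted permutation p = 0.315). By numbers these differences within collections were 0.15, 0.25 and 0.15, and none passed the test (adjusted permutation p = 0.224, 0.0832 and 0.236). The tests of pairs were two-sided. Leaving out replicate 2, 3 or 4 took the p of the test over treatments by titles above 0.05 (permutation p = 0.051, 0.0715 and 0.0524). Both differences that had passed were then lost as well, LH against HL with adjusted permutation p = 0.099, 0.1 and 0.159, and HH against LH with 0.0855, 0.1 and 0.0656.

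High libraries had total counts of 4215033 to 9785826 (median 6042936), and low libraries of 2136819 to 7729964 (median 5437903). Reads on no gene were a median of 21.6% in the high and 23.1% in the low libraries, and equal depth gave medians of 12557 and 12448 genes. Of the fibroblast markers, Col1a1, Col1a2, Col3a1, Fn1 and Thy1 were present in all of these libraries, and the summed level of the fibroblast marker list was 30440 to 41870 CPM in the high and 18720 to 31760 CPM in the low libraries. Epithelial markers summed to at most 4.57 CPM, and Krt5, Myod1 and Tyr had no count. Of the markers of other cells, Kdr, a receptor of endothelial cells, had medians of 194 CPM (high) and 169 CPM (low), and Sox9, a factor of cartilage, 491 and 513 CPM, and the fibroblast marker Fap was near 0. The immune markers summed to 11.9 to 24.2 CPM in the high (median 15.2) and 11.5 to 39.8 CPM in the low libraries (median 18.8), and 4 of the 5 tested were lower in the high libraries by less than 1.5-fold. Fabp4, a marker of fat cells, had medians of 5.61 and 7.80 CPM (difference −0.69) and Acan, of cartilage, differed by 0.42. The part of these cells in the results was not tested.

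Some libraries stood apart by Ereg, which codes for the growth factor epiregulin. In 4 low libraries it exceeded 10 times its highest level in the high libraries (13.4 CPM), with 2002 CPM in LH collection 2 replicate 1, 943 CPM in HL collection 2 replicate 3, 668 CPM in HL collection 6 replicate 3 and 138 CPM in HH collection 6 replicate 4. The same libraries had 704 to 4508 CPM of the early response gene Ier3, against at most 209 CPM in the high libraries. Of the libraries between, 3 also exceeded that level of Ereg. This group was defined after the levels were seen, and values without its 4 low libraries are given beside some of the list counts and differences that they change.

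Genes were kept if 3 or more libraries reached 1 CPM. Of these 13262 genes, without the 4 of the score, 805 (6.07%) were at least 1.5-fold higher and 303 (2.28%) at least 1.5-fold lower in the high than in the low libraries, on the log2(CPM + 1) scale, which understates the differences of low genes. The median of all genes was 0.11, so more genes were higher than lower. Scaling by TMM, a method that sets most genes equal between libraries, gave a median of 0.02 and 547 higher and 398 lower, so 57.9% of the genes past the fold were higher instead of 72.7%. For 26 genes (0.196%) each high library lay above each low one, and for 1 gene (0.00754%) each lay below. When libraries were ranked in their first run and levels were read from the second, 748 genes were at least 1.5-fold higher and 299 lower. When ranked within each treatment and collection by titles, which kept 7 of the high and 8 of the low libraries, the counts were 187 and 90. Without the 4 low libraries high in Ereg they were 365 and 130.

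**Figure D2:**
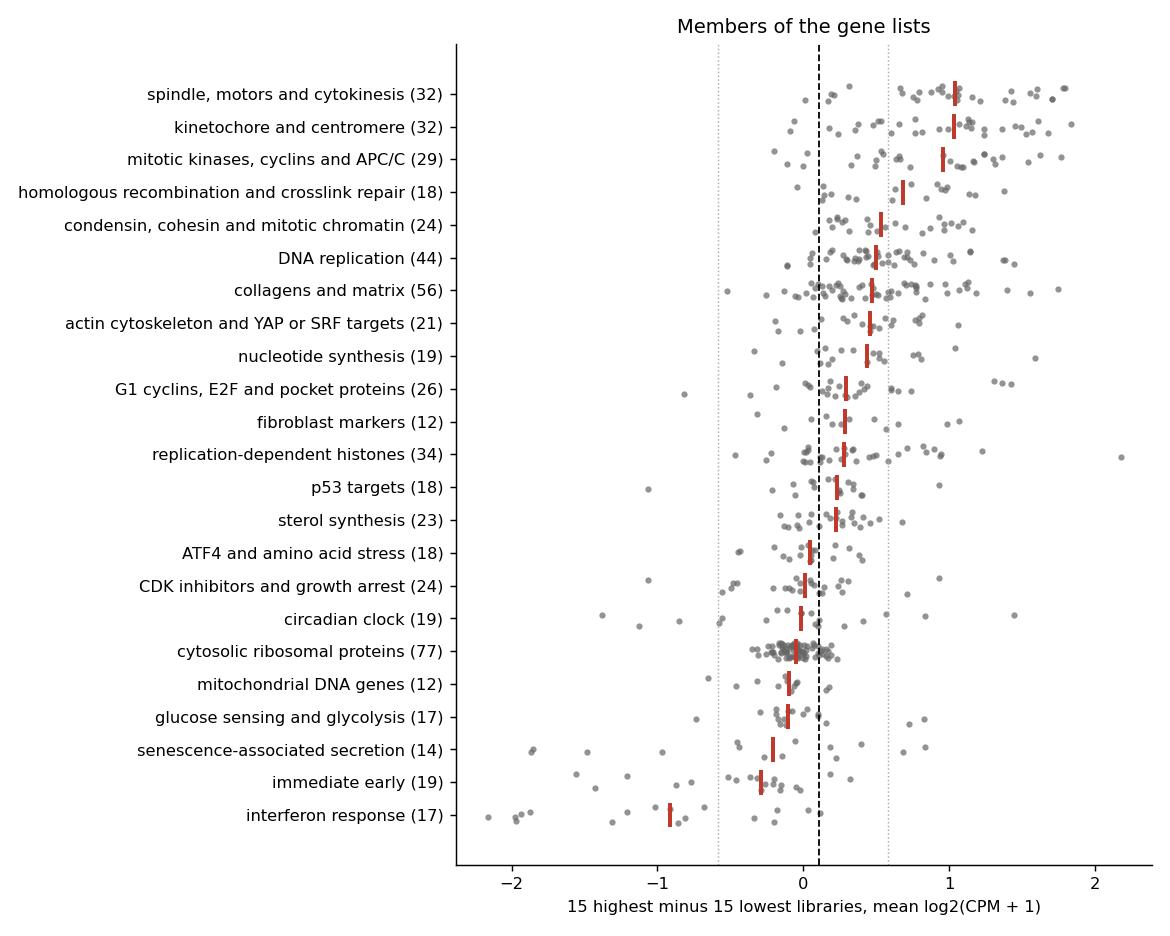
High minus low difference (log2(CPM + 1), means of 15 libraries each) of every tested gene of each list, with a red bar at the list's median, a dashed line at 0.11, the median of all genes tested, and dotted lines at 1.5-fold. The lists of mitosis sit farthest to the right (medians 0.96 to 1.04 for kinases, kinetochore and spindle) and the interferon list farthest to the left (−0.91).

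Genes of mitosis were higher in the high libraries nearly as a block. Of 29 mitotic kinases, cyclins and subunits of the anaphase-promoting complex (APC/C), 19 were at least 1.5-fold higher and none lower, with a median of 0.96. Of 32 kinetochore and centromere genes 23 were higher (median 1.03), of 32 spindle, motor and cytokinesis genes 27 (median 1.04), and of 24 genes of condensin, cohesin and mitotic chromatin 11 (median 0.53), with none lower in any of the 3. The lists overlap in function with the 4 genes that chose the libraries, so neither their direction nor the size of their differences is independent of the choice. The medians of the kinase, kinetochore and spindle lists were 0.83, 0.97 and 1.04 without the low libraries high in Ereg, and 0.41, 0.44 and 0.56 when libraries were ranked within treatment and collection, where 10, 7 and 15 of their genes were at least 1.5-fold higher. In that ranking only 2 of the 24 condensin, cohesin and chromatin genes were higher (median 0.29).

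Ccna2, the cyclin A of S phase and mitotic entry, had a lowest, median and highest level of 3.93, 8.46 and 11.5 CPM in the high and 0.692, 2.04 and 3.74 CPM in the low libraries, without overlap. Plk1, the kinase of mitotic entry, had 5.50, 15.6 and 24.2 CPM against 0.923, 4.56 and 9.40 CPM, a difference of 1.77. Cdc20 and Ube2c, which activate the APC/C and carry ubiquitin for it, differed by 1.31 and 1.36. Foxm1, the factor that drives these genes, differed by 1.30. All of these had higher medians in the high libraries, and only Ccna2 had no overlap.

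At kinetochores, Cenpm had 8.60, 13.2 and 18.5 CPM in the high against 0.628, 3.28 and 5.01 CPM in the low libraries, the largest difference of that list (1.83). The scaffold Knl1 (1.53), the cohesin protector Sgo1 (1.45), the checkpoint motor Cenpe (1.36) and Cdca8 (1.16), which with Birc5 (1.49) belongs to the chromosomal passenger complex, were also higher. Of these, Knl1, Sgo1, Cenpe, Cdca8 and Cenpm had no overlap, while Birc5 did overlap. Among spindle genes Aspm had 7.15, 11.4 and 17.9 CPM against 0.942, 2.35 and 6.07 CPM. Hmmr, which links microtubules at the spindle pole, had 8.07, 13 and 16.2 CPM against 1.52, 2.6 and 7.24 CPM. Both were without overlap, and so were Tpx2 (1.44), which activates Aurora A, Cit (1.71), the kinase of the cytokinetic ring, Tacc3 (1.38), Kif22 (1.42) and Kif20b (1.15). On the chromatin list, Lmnb1 (1.16), the lamin of proliferating cells, Ncapg2 (1.09) of the condensins and Cdca2 (1.06), which recruits a phosphatase to chromosomes, had the largest differences.

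Genes of DNA replication and repair were also higher. Of 44 replication genes, 17 were at least 1.5-fold higher and none lower (median 0.50), and of 18 genes of homologous recombination and crosslink repair 11 were higher (median 0.69). Ranked within treatment and collection, 4 and 4 genes of these lists were higher (medians 0.22 and 0.26). Lig1, which seals nicks on the lagging strand, had 93.3, 123 and 165 CPM in the high against 39.5, 60.2 and 85.2 CPM in the low libraries, the member of the list without overlap. The helicase subunit Mcm5 had 11.4, 19.4 and 41.9 CPM against 3.42, 7.84 and 18.9 CPM. The polymerase Pole (1.45), the chromatin factors Uhrf1 (1.39) and Chaf1a (1.15), and Brca2 (1.18) of homologous recombination were among the members with the largest differences. Of 19 genes of nucleotide synthesis 5 were higher (median 0.44), led by the thymidine kinase Tk1 (1.59), and the median was 0.21 both without the low libraries high in Ereg and when ranked within treatment and collection (5 and 2 higher).

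Pclaf, which binds PCNA at the replication fork, had one of the largest differences. It had 29.1, 46 and 89.9 CPM in the high against 2.83, 9.83 and 27.1 CPM in the low libraries, a difference of 2.17 or 4.49-fold without overlap. Of the replication-dependent histones, whose RNAs mostly lack a poly(A) tail, 34 of 67 passed the filter and 9 were at least 1.5-fold higher (median 0.28). Ranked within treatment and collection, 1 was higher (median 0.07). Among these histones Hist1h1b, a linker histone, had 4.49, 12.8 and 21.2 CPM against 0.912, 1.57 and 3.49 CPM, a difference of 2.18 without overlap. Reads of near-identical histone genes can be divided between copies, so these values are uncertain.

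**Figure D3:**
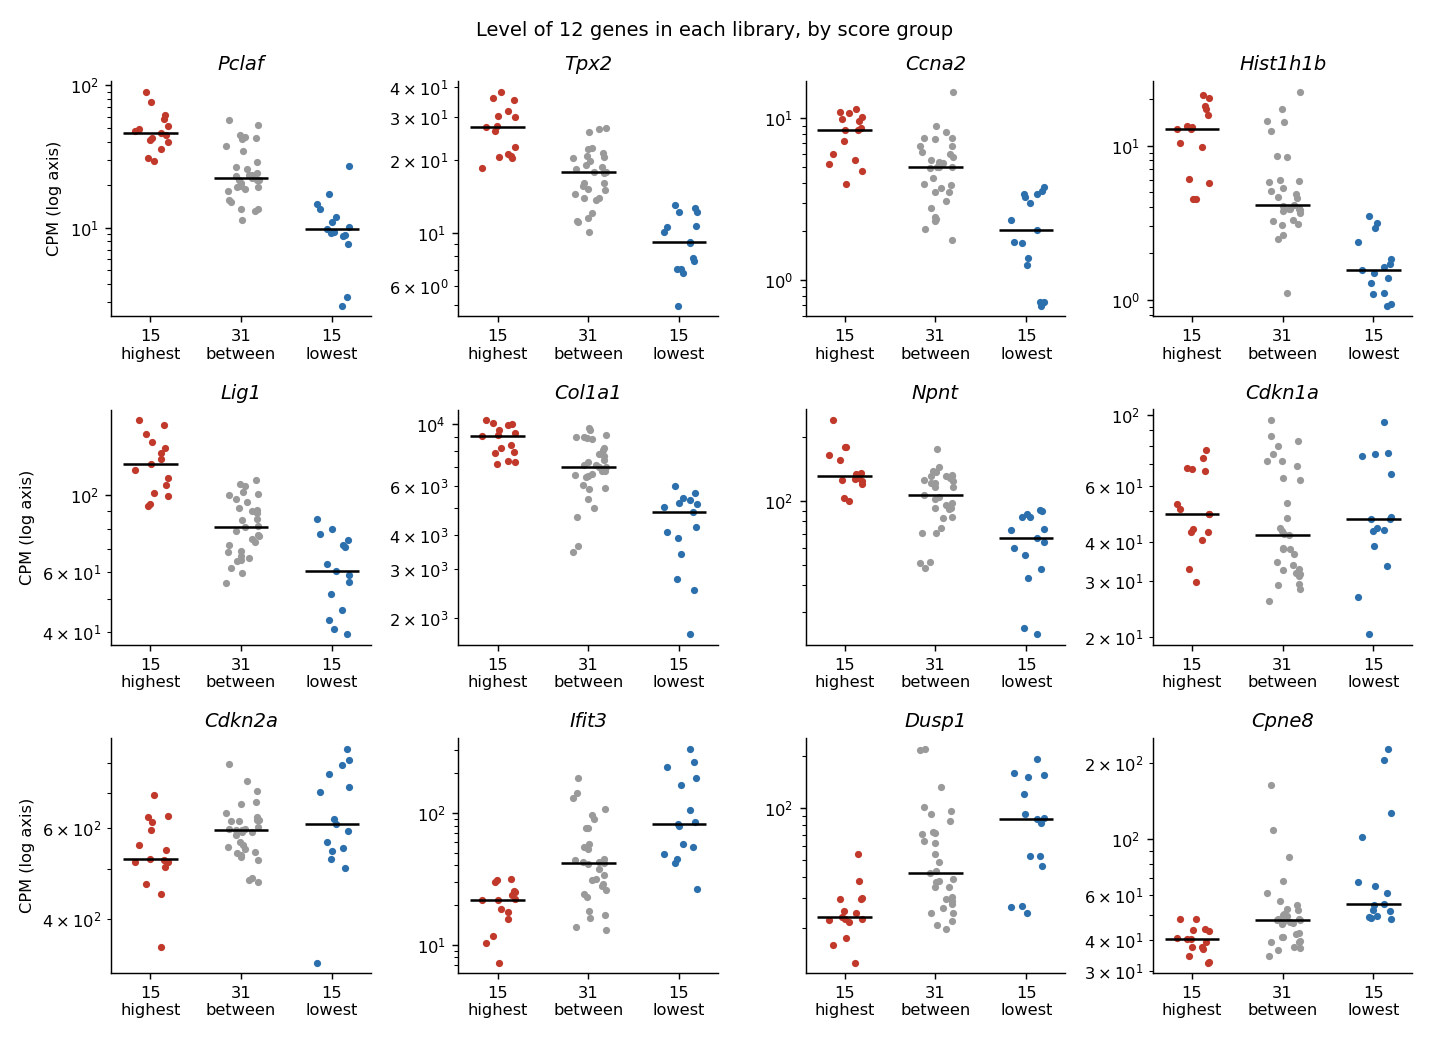
Level in CPM (log axis) of 12 genes in each of the 15 high, 31 between and 15 low libraries, 1 point a library and a bar at each group's median. Pclaf, Tpx2, Ccna2, Hist1h1b, Lig1, Col1a1 and Npnt have every high library above every low one and Cpne8 every high library below, while Cdkn1a and Cdkn2a overlap throughout and Ifit3 and Dusp1 are higher in most low libraries.

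Regulators of entry into the cycle differed less, as a list, than the genes of mitosis. As the mitosis lists overlap in function with the 4 score genes, this order is not independent of the choice of libraries. Of 26 G1 cyclins, E2F factors, pocket proteins and partners, 7 were at least 1.5-fold higher and 1 lower (median 0.29), against 3 and 0 without the low libraries high in Ereg. Ranked within treatment and collection, 2 were higher and 1 lower (median 0.185). The early cyclin Ccnd1 had 234.5, 297.9 and 418.2 CPM in the high against 63.9, 242.2 and 298.1 CPM in the low libraries, a difference of 0.60 that was 0.28 without the low libraries high in Ereg. Ccne2 (1.31) and the repressors E2f7 (1.36) and E2f8 (1.42), which E2F itself induces, differed most. E2f1 (0.25), E2f4 (0.01), Cdk2 (0.05) and Myc (0.17) were close to the median of all genes. Tfdp2, a partner of E2F, was the member that was lower (−0.82), and the difference shrank to −0.27 without the 4 low libraries high in Ereg.

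The CDK inhibitors, which hold cells in G1, had no common direction. Of 25 such genes and other growth arrest genes, 24 were tested, 2 were at least 1.5-fold higher and 1 lower, and the median was 0.01, or −0.09 with TMM scaling. Cdkn1a, the inhibitor p21, had 29.8, 49.0 and 77.8 CPM in the high and 20.4, 47.2 and 95.0 CPM in the low libraries. Cdkn1b, the inhibitor p27, had 72.1, 113 and 145 CPM against 63.7, 118 and 219 CPM. Cdkn2a, the locus of p16 and p19ARF, had 353, 523 and 694 CPM against 330, 611 and 854 CPM. The levels of all 3 overlapped throughout, with differences of 0.07, −0.10 and −0.20. Trp53inp1, a p53 target, was higher (0.93) and so was Pik3ip1 (0.71), an inhibitor of PI3K, while Sesn1, a stress protein under p53, was lower (−1.07). Without the low libraries high in Ereg these 3 differences were 0.49, 0.35 and −0.50, all within 1.5-fold. Other members of the list were then past it, 1 higher and 1 lower. Of 18 p53 targets tested, Trp53inp1 and Sesn1 were the ones past 1.5-fold, and none was without the low libraries high in Ereg.

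Many genes of the extracellular matrix were also higher in the high libraries. Of 56 collagens and matrix genes 22 were at least 1.5-fold higher and none lower, with a median of 0.47. Ranked within treatment and collection, 7 were higher (median 0.31). Col1a1, the main chain of collagen I, had 7175, 9089 and 10319 CPM in the high and 1753, 4834 and 5989 CPM in the low libraries, without overlap. Lox, which crosslinks collagen, had 1105, 1389 and 1787 CPM against 565, 809 and 1048 CPM, also without overlap. Col5a1 (1.12) and the integrin ligand Npnt (1.2) had no overlap, whereas Spon2 (1.74), Col5a3 (1.55), the microfibril protein Fbn1 (1.39) and the basement membrane chains Col4a1 (1.19) and Col4a2 (1.13) overlapped. With the low libraries high in Ereg left out, 18 of the 56 were higher (median 0.46), and Fbn1 differed by 0.96. Of 21 genes of the actin cytoskeleton and of YAP or SRF, 7 were higher (median 0.46), among them the contractile genes Tagln (1.06), Cnn1 (0.82) and Acta2 (0.80). Without the low libraries high in Ereg only 1 of the 21 was higher (median 0.25), with Tagln at 0.76, Cnn1 at 0.55 and Acta2 at 0.46, and 2 were when ranked within treatment and collection (median 0.36).

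Interferon-induced genes had the opposite direction. Of 17 tested, 12 were at least 1.5-fold lower in the high libraries and none higher, with a median of −0.91 (−1.02 with TMM scaling). Ranked within treatment and collection, 6 were lower (median −0.41). Isg15, whose promoter is printed above, had a lowest, median and highest level of 7.16, 14.6 and 24.7 CPM in the high and 13.6, 59.7 and 178 CPM in the low libraries. Ifit1, which binds foreign RNA, had 9.36, 26.8 and 41.3 CPM against 27.1, 97.6 and 282.2 CPM. Ifi44 had 13.3, 19.5 and 33.8 CPM against 22.9, 88.8 and 877 CPM. In all 3 the medians of the low libraries exceeded the highest high library, but some low libraries overlapped the high ones. Without the 4 low libraries high in Ereg the differences of Isg15, Ifit1 and Ifi44 were −1.50, −1.50 and −1.66 instead of −1.98, −1.93 and −2.46, and 10 of the 17 genes were lower, with a median of −0.74. Ifit3 and Ifit3b are near-identical copies, so their values (−2.16 and −1.86) are uncertain.

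Some genes of secretion and of the immediate early response were also lower in the high libraries. Of 16 genes of the senescence-associated secretion 14 were tested, of which 4 were lower and 2 higher. Cxcl1, which attracts neutrophils, had 1.12, 2.76 and 5.61 CPM in the high and 2.03, 10.6 and 142 CPM in the low libraries. Ccl2, which attracts monocytes, differed by −1.87. Without the low libraries high in Ereg, Cxcl1 and Ccl2 differed by −1.08 and −1.04. Of 19 immediate early genes 5 were lower and none higher (median −0.29), against 3 lower (median −0.17) without the libraries high in Ereg and 2 (median −0.12) when ranked within treatment and collection. Dusp1, the phosphatase that turns off MAP kinases, had 12.7, 23.4 and 54.4 CPM against 24.7, 86.1 and 192 CPM, and the transcription factor Egr3 had 0.409, 3.47 and 8.23 CPM against 5.95, 12.7 and 20.3 CPM. Both overlapped, and their differences of −1.56 and −1.43 were −1.23 and −1.42 without the libraries high in Ereg. Cpne8, a calcium-dependent membrane-binding protein, was the gene whose high libraries all lay lower, with 32.4, 40.3 and 48.1 CPM against 48.2, 55.4 and 227.8 CPM.

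Clock genes had differences in both directions, 2 of 19 higher and 3 lower (median −0.01). Nr1d1, the repressor REV-ERBα, had 10.4, 43.5 and 161 CPM in the high and 3.21, 14.9 and 77.6 CPM in the low libraries. The repressor Cry1 had 6.12, 10.5 and 27.2 CPM against 24.8, 31.7 and 56.2 CPM, and the clock output factor Hlf 8.62, 28.8 and 43.1 CPM against 29.0, 64.1 and 134 CPM. High and low libraries were spread unevenly over the collections, and when ranked within treatment and collection by titles 2 clock genes were higher and none lower (median 0.16). The part of the collections in these differences was not tested. Of 23 sterol synthesis genes 1 was higher (median 0.23). None was without the low libraries high in Ereg (median 0.13) or when ranked within treatment and collection (median 0.01). Of 17 genes of glucose sensing and glycolysis 2 were higher and 1 lower (median −0.10), with a median of 0.06 without the low libraries high in Ereg. Of 18 genes under ATF4 none passed 1.5-fold, with 2 higher without those libraries. None of 77 genes of cytosolic ribosomal proteins passed it either (median −0.05).

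In the 31 libraries of neither group, which did not enter the comparison of high and low libraries, the score still ran from 3.53 to 4.49. There, the quasi-likelihood test of edgeR, with p adjusted by Benjamini and Hochberg over all 13262 genes, found 26 genes that rose with the score (0.196%) and 9 that fell (0.0679%), and 1376 genes had an unadjusted p under 0.05. Of the rising genes, Nusap1, Ccna2, Ckap2l, Ttk, Cdca3, Knl1, Kif23, Ska1, Cdca2, Lmnb1, Spc24 and Ncapd2 belong to mitosis. Pclaf rose by 1.67 ± 0.29 on the log2 scale for each unit of the score (± SE, adjusted p = 0.00844), from 11.3 to 57.0 CPM over the 31 libraries. Nusap1, which bundles spindle microtubules, rose by 1.41 ± 0.25 (adjusted p = 0.00844, 5.64 to 21.8 CPM), and Ccna2 by 1.85 ± 0.36 (adjusted p = 0.0219). Ttk, Ckap2l and Cdca3, with the promoters printed above, rose by 1.53, 1.45 and 1.32 (adjusted p = 0.0263, 0.0263 and 0.027). Of the matrix genes Lox rose by 0.79 ± 0.16 (adjusted p = 0.0263, 738 to 1623 CPM) and Spon2 by 2.46 ± 0.52 (adjusted p = 0.027). The other rising genes with counts in at least 30 of the 31 libraries were Tbc1d7, Peg10, Ano1, Anxa2, Aaas, Sh3bgrl3, Hid1 and B4galt2.

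The genes that fell were Galnt15, a glycosyltransferase, the factors Egr3, Hlf and Foxl2, the hormone Stc2, the fatty acid carrier Fabp5, Grpel2 of mitochondrial protein import, F7 and Hist1h2ai. Egr3 fell by 1.88 (adjusted p = 0.027, 2.58 to 18.6 CPM) and Hlf by 1.49 (adjusted p = 0.0341, 25.8 to 142 CPM). Both, with Galnt15 and Stc2, were also at least 1.5-fold lower in the high than in the low libraries. F7, Foxl2 and Hist1h2ai, and the rising Pcdhb8 and Gm15893, had 0 CPM in most of the 31 libraries and rested on 32 to 74 counts in all. No interferon gene and no CDK inhibitor passed, with Isg15 at a slope of −1.24 (adjusted p = 0.329), Ifit1 at −2.07 (adjusted p = 0.137), Cdkn1a at 0.43 (adjusted p = 0.717) and Cdkn2a at −0.06 (adjusted p = 0.927). With 0.196% of all genes rising and 0.0679% falling, no call would be expected in lists of 17 and 24 genes. That none passed is thus no result about these lists.

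By sign alone, 27 of 29 mitotic kinase, 31 of 32 kinetochore, 32 of 32 spindle and 38 of 44 DNA replication genes had slopes above 0, beside 6452 of all 13262 genes tested. For the interferon genes it was 3 of 17, for the immediate early genes 4 of 19, and for the ribosomal proteins 26 of 77. Lists outside the cell cycle reached similar shares, with 20 of 23 sterol synthesis and 10 of 12 mitochondrial DNA genes above 0, and 5 of 19 clock genes were above 0. Of the matrix genes 32 of 56 and of the actin genes 9 of 21 had slopes above 0, so in the libraries between, unlike in the mitotic lists, the signs of the matrix genes were divided.

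**Figure D4:**
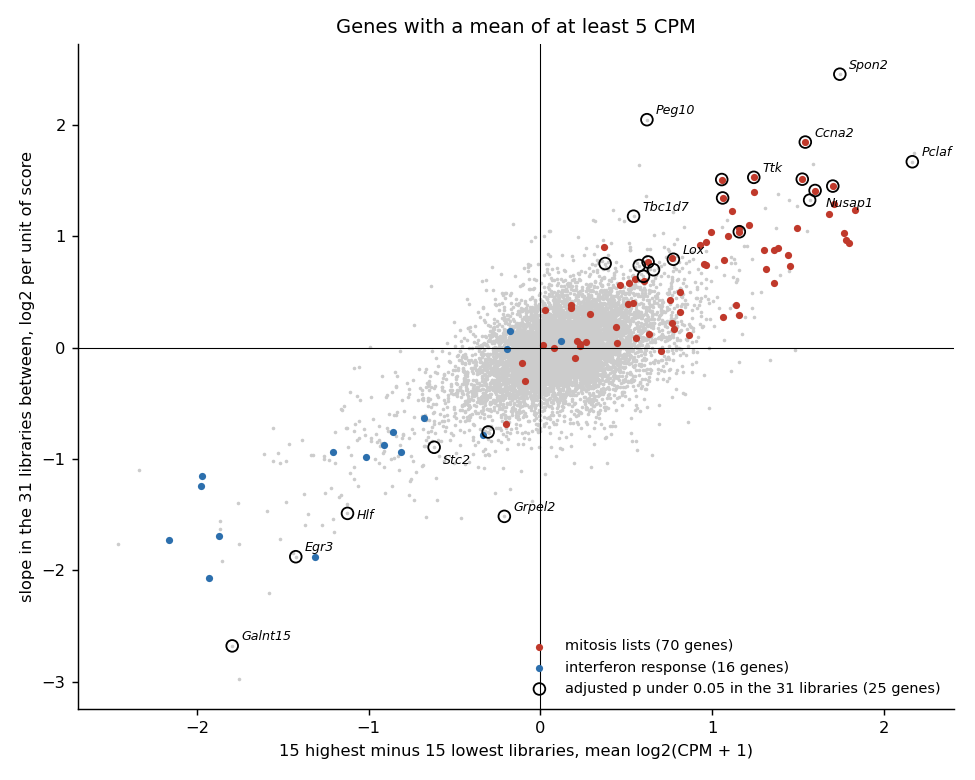
Slope on the score in the 31 libraries of neither group (log2 per unit of score, y axis) against the high minus low difference (log2(CPM + 1), x axis) for 9261 genes of at least 5 CPM on average, with mitosis genes and interferon genes coloured and genes with an adjusted p under 0.05 circled. Of the 70 mitosis genes plotted 64 have a slope above 0, of the 16 interferon genes 14 have one below 0, and of all genes 4362 have one above 0.

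The calls in these 31 libraries depended on few libraries and on what else was in the model. With terms for treatment and collection by titles, edgeR called 0 genes, with 567 at an unadjusted p under 0.05, and DESeq2 was not run with these terms. Within treatment and collection by titles the relation to the score was thus not detectable gene by gene in these 31 libraries. No such fit was made with the names from the library numbers. Without HL collection 3 replicate 1, 4 genes rose and 0 fell, and without HH collection 1 replicate 3, 6 rose and 4 fell. With the score taken from the first run and the counts from the second, 9 rose and 2 fell, of which 9 and 1 were among the genes named above. Without the 3 libraries high in Ereg, 37 rose and 14 fell.

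Promoter windows of RefSeq were found for 10152 of the 13262 genes tested, of which 13.7% hold a CHR, 39.3% a CCAAT box, 3.12% an E2F match and 3.18% an ISRE. Of the 26 genes whose high libraries all lay above the low ones 21 had a window, and 10 of these (47.6%) hold a CHR and 12 (57.1%) a CCAAT box. The CHR was held by 75.9% of 29 spindle genes, 65.2% of 23 mitotic kinase and cyclin genes and 50% of 28 kinetochore genes, against 27.8% of 36 DNA replication genes, 16.2% of 37 matrix genes and 4.55% of 22 CDK inhibitors and growth arrest genes. E2F matches were in 30.6% of the DNA replication genes, 37.5% of 16 condensin, cohesin and chromatin genes and none of 23 mitotic kinase genes, beside 3.12% of the genes tested. The ISRE was in 7 of 15 interferon genes (46.7%), Isg15 and Ifit1 among them. Of the 5 genes with a window that fell with the score none holds a CHR, but 5 are too few to set against the 13.7% of genes tested. These shares describe windows and were not tested.

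**Figure D5:**
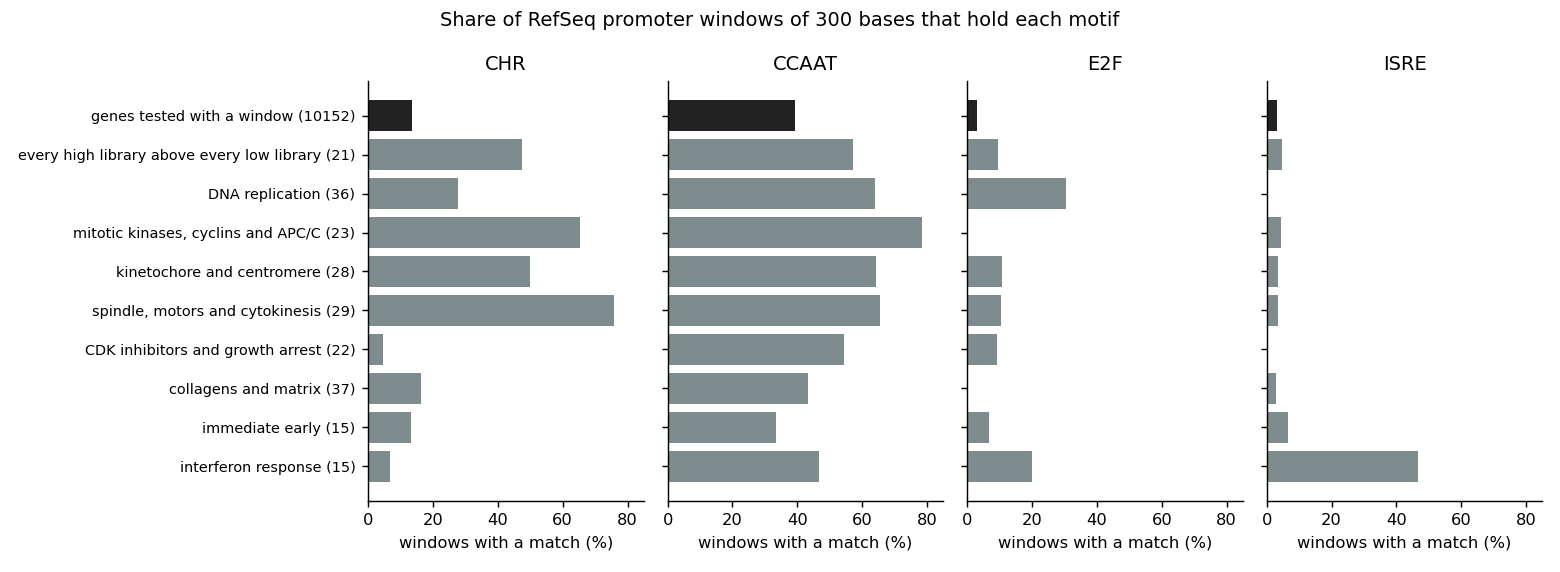
Percent of promoter windows (250 bases before to 50 after the start site, RefSeq, GRCm38.p6) that hold each motif, by gene list, beside all genes tested that have a window. The CHR ranges from 50% to 75.9% in the kinase, kinetochore and spindle lists against 13.7% of all genes, and the ISRE is in 46.7% of the interferon list against 3.18%.

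The counting's use of strand is not given in the sources used here, and 72 of 207 genes that were checked overlap another annotated gene, 43 of them within the last 1000 bases, which is the part that 3′DGE reads. Ccna2 with Exosc9, Pclaf with Trip4, Nr1d1 with Thra and Ube2c with Tnnc2 are such pairs, and reads of the members of a pair may not be told apart.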

How the data were processed

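The authors deposited counts of uniquely aligned reads per gene without normalization, as 121 sets for the sequencing runs of 62 libraries. The submitters' processing notes name bcl2fastq, STAR 2.6.0a, HTSeq 0.9.1 and mm10. Neither the annotation release nor the use of strand is stated there or in the paper. Each set lists 31053 genes, and its last lines, which count reads outside genes, entered no total or test (reads on no feature were 18.7% to 28.9% in a library). Runs of a library were summed, and 1 library of 104912 counts was not ranked.

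Treatment and collection came from the sample titles, with the library numbers of the read summary as an alternative. The score was tested by 100000 permutations of 1 label within the other, after the means of the other had been subtracted, so shares and differences are within the other label. Slopes on the score were fitted with edgeR 4.0.16 in R 4.3.3 (quasi-likelihood, TMM) on counts, adjusted over all 13262 genes. DESeq2 1.42.0 was an alternative. CPM levels used a pseudocount of 1. The scripts were tested on simulated data.

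The libraries, gene lists and tests were chosen with earlier results of these data known. Genes named are the 12 with the largest difference in each direction among those of at least 10 CPM, the 8 with the smallest p in each direction among those called, up to 5 leading members of each list, the G1 and CDK inhibitor lists whole, and the members of small counts. Other genes were named after their values were seen. Some genes that the rule names are not reported here. The lists of cell cycle, matrix, stress and marker genes were written by hand and are no database sets. Alternatives were other group sizes, rankings, scalings, filters, pseudocounts, depth, added model terms, left-out replicates and libraries, and a replicate block. Libraries with the same replicate number did not deviate together (mean correlation 0.0026, against 0.0017 for other numbers), so the numbers do not pair them.

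Permutation p-values and slopes over 31 libraries rest on few libraries of each treatment and collection. A low library of 2136819 counts has about 2 counts for a gene at 1 CPM, so levels below a few CPM are imprecise, and intervals between libraries include this counting error.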

Additional observations from a re-analysis of the deposited data

Results flagged for a closer look

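Among the 9 groups of at least 4 libraries of the same treatment and collection by titles, the score of HL collection 2 replicate 4 (4.25) lay apart from the other 3 libraries of its group, by 0.875 of the group's range against a critical value of 0.829. The other 3 were all among the 15 low libraries. Chance alone gives such a gap in about 1 of 20 groups. By library number this library carries the name of an LH library of collection 1, and the numbers of the other 3 are not listed, so by numbers these 4 form no group.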

How the results depend on the processing

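The high and low groups were also formed in other ways. The shares of genes at least 1.5-fold higher and lower, 6.07% and 2.28%, were 10.2% and 2.97% with 10 libraries a group, 1.41% and 0.679% when ranked within treatment and collection, 2.08% and 1.28% with a pseudocount of 5, 3.67% and 1.34% without collection 2, and 2.75% and 0.98% without the low libraries high in Ereg (the last 2 chosen after seeing the data). Leaving out a replicate gave 4.92% to 11.3% higher and 1.89% to 3.72% lower. Genes without overlap, 26 above and 1 below, numbered 81 and 4 with 10 libraries a group, 2 and 0 with 20, 0 and 0 ranked within treatment and collection, 7 and 0 with ranks and levels from different runs, 18 and 4 with TMM, 10 and 1 after thinning, 52 and 9 without collection 2, 33 and 8 without low libraries of unlisted number, 31 and 3 without those high in Ereg, and 27 to 64 and 2 to 33 with a replicate left out. Among named genes at least 1.5-fold apart, the high minus low difference of Egr1 alone changed sign, to 5.75e-06, close to 0, when ranked within treatment and collection. In the 31 libraries of neither group, rising and falling genes numbered 49 and 26 by DESeq2, 159 and 127 without the filter (19451 genes), 22 and 5 at 5 CPM, 9 and 2 with score and counts from different runs, 0 and 0 with terms for treatment and collection, 29 and 14 with depth as a term, and 37 and 14 without the libraries high in Ereg. Leaving out a replicate or 1 library gave 4 to 38 rising and 0 to 81 falling, and the extremes by 1 library were 4 and 0 without HL collection 3 replicate 1 and 37 and 36 without LH collection 4 replicate 2. Of the slopes called, none reversed under any alternative. By library numbers, within the other label, the score gave 10.8% for treatments, −0.15 for LH minus HL and 0.25 for HH minus LH. HH minus HL reversed to −0.056 by titles over the libraries of listed number. With a replicate left out, treatments gave 12.6% to 19.8%, collections 42.8% to 47.8%, LH minus HL −0.43 to −0.26, HH minus HL 0.083 to 0.27 and HH minus LH 0.42 to 0.48. The causes were not tested.

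With the replicate number as a block, 22 genes rose and 5 fell, of which 20 and 5 were among those called without it, and the score tests kept their side of the threshold (treatments p = 0.0334 by permutation). Of 61 libraries 14 were closest to their own number.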

Other observations

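The library that was not ranked, LH collection 2 replicate 2, had 104912 counts, with 32 of Top2a, 5 of Mki67, 5 of Cenpf and 1 of Kif11. Its score would be 5.72, above that of each ranked library, on so few counts that 1 count of Kif11 or none changes it.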
